A study of Mus musculus with 6 samples.

Results

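Claudins and the genes of epithelial adhesion were followed in whole mouse lung with and without Scap in the respiratory epithelium. The set comprised 10 genes out of 18193 with a probe set of 1 gene symbol: the claudins Cldn1, Cldn3, Cldn4, Cldn6, Cldn7, Cldn8 and Cldn18, the adhesion molecule Epcam, E-cadherin (Cdh1) and the junction scaffold ZO-1 (Tjp1). They were chosen by name, and every probe set annotated to 1 of these symbols alone was taken, 18 of 34945 such probe sets. The Scap-deleted group held 3 lung samples whose respiratory epithelium lacked the Scap gene (Scap d/d), and the control group held 3 lung samples. All 6 were whole lung taken at E18.5, shortly before birth, from mice of mixed FVB/N and B6 descent. RNA from each sample was read on 1 MOE430 V2 array. The labels name neither the driver of the deletion, nor the alleles of the controls, nor whether a sample is 1 animal. The p-values therefore refer to the spread among these 6 samples, part or all of which may be technical.

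Epithelial cells of the airways and alveoli are sealed to their neighbours at tight junctions, whose strands are built of claudins. Each claudin spans the membrane 4 times and binds claudins of the adjoining cell, and which ones are present sets how tightly water and ions are held back. ZO-1 anchors the strands to actin from the inside, while E-cadherin holds cells together at the adherens junction below and Epcam, a separate adhesion protein, binds and stabilises some claudins. In the alveoli Cldn3, Cldn4 and Cldn18 are the best known claudins. Around birth this barrier keeps cleared lung liquid from returning. Scap carries the SREBP factors to the Golgi for cleavage, so that they can switch on lipid synthesis genes. The comparison described here asks whether junction transcripts differ when that step is interrupted in the epithelium.

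The sequences below lie directly before the annotated start of 3 members whose Scap-deleted and control arrays did not overlap at a tested probe set. They were taken from RefSeq windows on GRCm38.p6 and trimmed to the 250 bases upstream. The Cldn4 window is chr5:134946935-134947184 (minus strand), the Cldn7 window chr11:69965171-69965420 (plus strand, the second of 2 annotated starts) and the Epcam window chr17:87635729-87635978 (plus strand). Capitals mark CAGGTG or its reverse complement CACCTG, an E-box that Snail and Zeb repressors are known to bind.
Cldn4: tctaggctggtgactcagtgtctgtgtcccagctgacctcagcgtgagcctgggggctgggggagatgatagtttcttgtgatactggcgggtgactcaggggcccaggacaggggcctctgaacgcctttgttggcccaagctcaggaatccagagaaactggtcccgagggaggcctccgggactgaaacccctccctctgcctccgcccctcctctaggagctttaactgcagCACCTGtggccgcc
Cldn7: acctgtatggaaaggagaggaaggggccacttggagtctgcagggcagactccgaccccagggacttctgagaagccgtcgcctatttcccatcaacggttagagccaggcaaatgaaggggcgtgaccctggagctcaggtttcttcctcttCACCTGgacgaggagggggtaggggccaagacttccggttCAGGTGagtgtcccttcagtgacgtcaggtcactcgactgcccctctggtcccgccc
Epcam: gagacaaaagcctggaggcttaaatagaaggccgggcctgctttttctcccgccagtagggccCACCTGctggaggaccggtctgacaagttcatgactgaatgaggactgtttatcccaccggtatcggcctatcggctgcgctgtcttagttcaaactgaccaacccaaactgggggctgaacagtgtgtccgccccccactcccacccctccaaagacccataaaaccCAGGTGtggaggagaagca

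The Cldn4 window holds 1 such E-box, starting 14 bases before the start site. The Cldn7 window holds 2, at 97 and 57 bases, and the Epcam window 2, at 187 and 19 bases. The window of the first Cldn7 start, which is not printed, holds 0. RefSeq windows were found for 8 of the 10 members, 10 windows in all. The E-box was present in 4 of these 10, those of Cldn4, Cldn6, Cldn7 at the start shown, and Epcam. Among all 32851 windows of this length, on either strand, 17.2% hold it. The grainyhead motif AACCGGTT (0.116% of all windows) and the sterol element TCACNCCAC (1.05%) were searched the same way on both strands and were in 0 of the 10. The motifs do not overlap each other in these windows. A match is a description of the letters and not a binding site.

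The 6 arrays had median signals of 490.8 to 530.4 and peaked at 101398.5 to 128538, and with 3 a group their number sets how precise any comparison can be. The Scap transcript read 1846.8, 3285.8 and 2702.0 in Scap-deleted lungs, against 7264.1, 4194.6 and 3079.7 in control lungs, so that the groups overlapped (log2 difference -0.84, SE 0.34, limma adjusted p = 0.939). The second Scap probe set, below the limit for testing, read 238.6 ± 79.3 in Scap-deleted lungs and 436.5 ± 315 in control lungs. Both arrays numbered 3 stood apart from the other 4 on the first principal component, 36.3% of the variance. Lung markers were bright: Sftpc, surfactant protein C, averaged 97286 ± 6167 in Scap-deleted lungs and 97440 ± 15052 in control lungs. On the log2 scale it was the only 1 of 8 alveolar type II markers with a positive difference. That difference was 0.008, while its linear mean was slightly lower in Scap-deleted lungs. Of the other 7, 4 had an unadjusted p under 0.05 with lower signal (limma), beside 2.65% of all probe sets tested. These were Sftpa1 at 45.5%, Abca3 at 63.9% and Sftpb at 76.5% of control, and Lpcat1 between the last 2. Their adjusted p lay between 0.814 and 0.937 (limma). Other tested Abca3 probe sets stood at 66.1% and 119.6%. Means here and below are signal ± SD with n = 3 arrays a group. A percent of control is the log2 difference turned back into a ratio. It compares geometric means and can differ from the ratio of the means printed.

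Of the 18 probe sets, 14 from 8 genes had a mean signal at or above 512.3, the median of all probe sets, and were tested. The probe sets of Cldn6 and Cldn8 and the dimmest pair of Cldn1 lay below it. Closest to the limit were a Cldn1 probe set inside it, at a mean of 567.2, and the Cldn6 probe set outside it, at 404.9. Differences are Scap-deleted minus control on the log2 scale, with the standard error (SE) and, where given, the 95% interval from limma. Adjusted p is Benjamini-Hochberg over the 22519 probe sets tested.

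No member passed that test. Limma called 0 of the 14 at an adjusted p of 0.05, and 0 of the 22519 probe sets (0%), with 1177 of all and 2 of the members at an unadjusted p of 0.05. One member lay in each direction: Cldn4, 1 of 14 against a background of 2.58% with higher signal, and Epcam, 1 of 14 against 2.65% with lower signal. The groups did not overlap in 2 tested members with higher signal, Cldn4 and Cldn7, where 5.29% of all tested probe sets did so, and in 1 with lower signal, Epcam, where 5.22% did so. Over the 14 the median log2 difference was 0.09, beside 0.01 over all probe sets tested, with 9 positive and 5 negative. In 11 of the 14 the difference was under 0.25 in either direction. The median of 0.09 became 0.02 without control replicate 2. In whole lung, fewer cells of a type and less RNA per cell cannot be told apart.

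**Figure D1:**
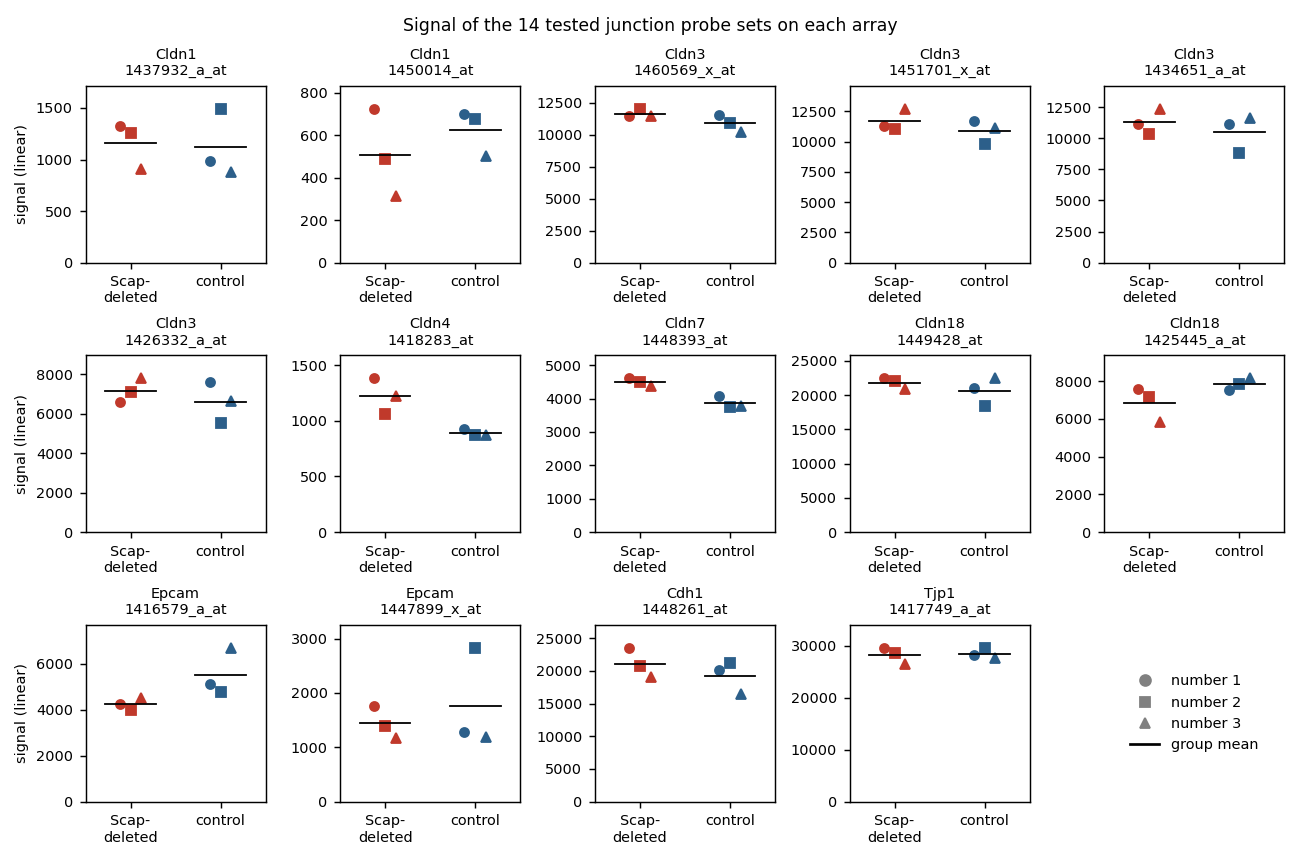
Linear signal of the 14 tested probe sets on each array, with Scap-deleted arrays left and control arrays right. Symbols give the sample number and black lines the group means; for Cldn4 and Cldn7 all 3 Scap-deleted arrays lie above all 3 control arrays, and for the first Epcam probe set all lie below.

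Cldn4, a claudin that seals the paracellular space and is known in adult lung to be induced by injury, had the smallest p of the set. Its signal was 1381.8, 1057.4 and 1222.5 in Scap-deleted lungs, against 930.9, 871.7 and 876.4 in control lungs. Every Scap-deleted array lay above every control array, and the control arrays lay close together. The means were 1221 ± 162 in Scap-deleted lungs and 893 ± 32.9 in control lungs, 135.9% of control (log2 difference 0.44, SE 0.12, 95% interval 0.15 to 0.74). The unadjusted p was 0.00902 and the adjusted p 0.876 (limma). Taken by sample number, the difference was 0.57, 0.28 and 0.48.

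Cldn7, a claudin found along the lateral membrane as well as at the tight junction and a known partner of Epcam, varied little within either group. It read 4607.7, 4491.1 and 4367.4 in Scap-deleted lungs, against 4091.7, 3751.8 and 3786.4 in control lungs. The groups were separated, the lowest Scap-deleted array lying above the highest control array. The log2 difference was 0.21 (SE 0.10, 95% interval -0.01 to 0.44, unadjusted p = 0.0607 and adjusted p = 0.942 by limma), and by sample number it was 0.17, 0.26 and 0.21.

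Cldn6, a claudin of embryonic epithelia, was dim. It read 386.5, 539.3 and 447.0 in Scap-deleted lungs, against 379.9, 330.7 and 346.1 in control lungs. The groups did not overlap, although the lowest Scap-deleted array exceeded the highest control array by little. Its mean was 457.6 ± 77.0 in Scap-deleted lungs and 352.2 ± 25.2 in control lungs (log2 difference 0.37, not tested at this brightness). When dim probe sets were tested too, its unadjusted p was 0.0740 and its adjusted p 0.964 (limma).

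Cldn3, which shares a cluster on mouse chromosome 5 with Cldn4, was read by 4 probe sets that measure the same gene and are not independent. The names of 2 of them, the brightest included, end in x_at, which marks probes that may also bind other transcripts. At the brightest it read 11513.3, 12040.7 and 11439.6 in Scap-deleted lungs, against 11526.2, 10951.1 and 10256.7 in control lungs. The groups overlapped through control replicate 1. All 4 differences were small and positive, from 0.10 to 0.12, with unadjusted p between 0.351 and 0.474. The interval of the brightest one ran from -0.13 to 0.33. Without control replicate 2 the 4 differences lay between -0.02 and 0.10.

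Cldn18, which has lung and stomach isoforms made from separate promoters, was read by 2 probe sets with differences of opposite sign. The brighter one read 22426.4, 22045.1 and 20945.1 in Scap-deleted lungs, against 21089.8, 18459.8 and 22446.7 in control lungs. The Scap-deleted range lay inside the control range (log2 difference 0.08, SE 0.11; 0.00 without control replicate 2). The other read 7558.9, 7171.1 and 5845.1 in Scap-deleted lungs, against 7543.5, 7824.2 and 8145.7 in control lungs. Here Scap-deleted replicate 1 lay just inside the control range and the other two lay below it (log2 difference -0.20, SE 0.13, unadjusted p = 0.153, limma; -0.09 without Scap-deleted replicate 3). RefSeq has windows for 2 starts of the gene; which transcripts each probe set reads was not examined.

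Cldn1, a barrier claudin best known from skin, had 4 probe sets, of which 2 were bright enough to test. The brightest read 1325.4, 1252.9 and 910.2 in Scap-deleted lungs, against 989.2, 1492.3 and 875.4 in control lungs, and the Scap-deleted range lay inside the control range (log2 difference 0.08, SE 0.23). The next read 724.0, 489.3 and 311.3 in Scap-deleted lungs, against 701.3, 676.6 and 500.7 in control lungs (log2 difference -0.37, SE 0.30). That difference was -0.67 without Scap-deleted replicate 1 (unadjusted p = 0.0358 and adjusted p = 0.938 by limma) and -0.06 without Scap-deleted replicate 3. At the brightest it was 0.30 without control replicate 2 and -0.08 without control replicate 3. With all arrays, both had adjusted p of at least 0.956 (limma). The dim pair averaged 40.4 ± 27.9 in Scap-deleted lungs and 63.0 ± 33.0 in control lungs at one, and 18.6 ± 16.9 in Scap-deleted lungs and 4.1 ± 3.4 in control lungs at the other.

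Cldn8, a claudin that limits sodium leak in kidney and colon, was dim as well. It read 321.1, 178.1 and 309.5 in Scap-deleted lungs, against 188.0, 213.7 and 368.1 in control lungs. The 2 ranges nearly coincided.

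**Figure D2:**
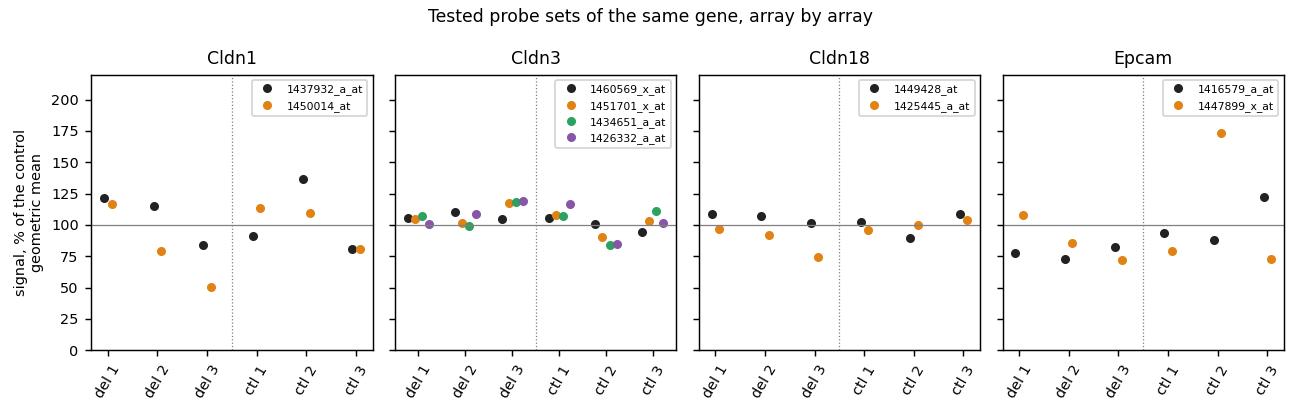
Signal of the tested probe sets of Cldn1, Cldn3, Cldn18 and Epcam on each array, as a percent of the geometric mean of the control arrays, Scap-deleted (del) left and control (ctl) right. The 4 Cldn3 probe sets stay together, whereas the second Epcam probe set (orange) is lifted by control replicate 2, which reads 2829.2.

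Epcam lay on the other side of zero. Its brighter probe set read 4246.9, 3976.3 and 4496.9 in Scap-deleted lungs, against 5110.5, 4795.8 and 6702.2 in control lungs. All Scap-deleted arrays lay below all control arrays, and control replicate 3 was the highest. The means were 4240 ± 260 in Scap-deleted lungs and 5536 ± 1022 in control lungs, 77.3% of control (log2 difference -0.37, SE 0.15, 95% interval -0.72 to -0.02). The unadjusted p was 0.0398 and the adjusted p 0.937 (limma). By sample number the difference was -0.27, -0.27 and -0.58. Without control replicate 3 it was -0.23, with an unadjusted p of 0.103 (limma). The unadjusted p was also above 0.05 without control replicate 1 (0.0525) or Scap-deleted replicate 1 (0.0829), 2 (0.111) or 3 (0.0531, limma). Without control replicate 2 it was 0.022 (limma).

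The other Epcam probe set did not separate the groups. It read 1756.1, 1397.7 and 1175.1 in Scap-deleted lungs, against 1289.0, 2829.2 and 1184.7 in control lungs. A single array, control replicate 2, was far above the rest, and the log2 difference of -0.19 (SE 0.34) became 0.20 without it. Its name, too, ends in x_at.

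Cdh1 and Tjp1 were close to control. Cdh1 read 23528.7, 20775.5 and 19062.0 in Scap-deleted lungs, against 20165.5, 21177.1 and 16491.8 in control lungs, with overlapping groups (log2 difference 0.13, SE 0.14, 95% interval -0.19 to 0.46). The Cdh1 difference was 0.03 without control replicate 3, 0.05 without Scap-deleted replicate 1 and 0.21 without control replicate 2 or Scap-deleted replicate 3. Tjp1 read 29491.0, 28533.8 and 26412.4 in Scap-deleted lungs, against 28232.2, 29606.2 and 27648.5 in control lungs. Its log2 difference was -0.02, with an interval from -0.25 to 0.21. These intervals bound the differences and do not show that there was none.

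**Figure D3:**
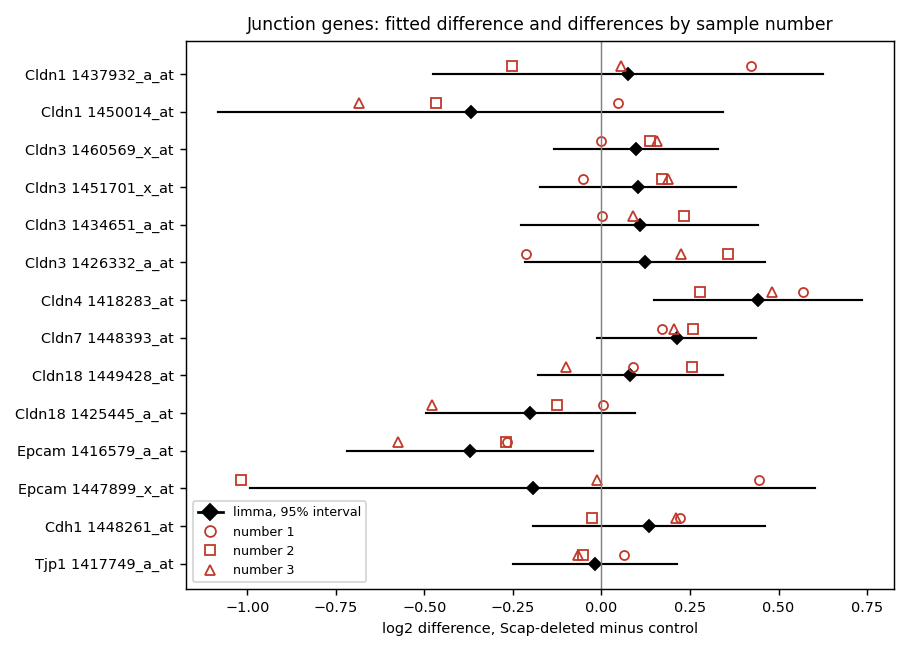
Log2 difference, Scap-deleted minus control, for the 14 tested probe sets: black diamonds with 95% intervals from limma, and open red symbols for the difference between samples of the same number. Intervals of Cldn4 (0.15 to 0.74) and of the first Epcam probe set (-0.72 to -0.02) lie to 1 side of 0, before adjustment over all probe sets.

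Cldn4 and Epcam patterns were set beside those of 10952 other tested genes over the 6 arrays. For Epcam the nearest were Cfap126, Fam117b, Ubl3 and Plekhh1, with Pearson r of 0.97 to 0.98. For Cldn4 they were Dynlrb2, Ift122, Map4k4 and Pex2, with r of 0.98 to 0.99. With 6 arrays such values are common: r exceeded 0.9 for 153 genes against Epcam and for 77 against Cldn4.

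The surrounding junction machinery was described from 7 lists, with 57 genes bright enough to test, each read at its brightest probe set. Of these 0 were called, 35 had positive and 22 negative differences, and the median was 0.03. At an unadjusted p of 0.05 stood 1 gene with higher and 0 with lower signal, beside 2.58% and 2.65% of all probe sets tested. The groups did not overlap in 5 with higher and 1 with lower signal, beside 5.29% and 5.22% of all. The smallest adjusted p was 0.912 (limma).

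Of the other claudins 13 had a probe set and 3 were tested, 1 positive and 2 negative. Cldn10, a claudin of secretory airway cells that forms ion channels, read 5517.8, 5017.8 and 7449.7 in Scap-deleted lungs, against 7100.1, 7136.8 and 7763.9 in control lungs. The log2 difference was -0.31 (SE 0.16, adjusted p = 0.942). Cldn5, mainly a claudin of endothelium, stood at 86.9% and Cldn12 at 106.7% of control, its other probe set at 90.1%. The endothelial markers lay on the same side of zero as Cldn5, with 6 of 7 negative, a median at 89.7% of control and a summed signal of 67868 to 72010 in Scap-deleted lungs and 72484 to 79991 in control lungs. None was at 0, and their part in the Cldn5 value was not tested.

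Other tight junction proteins were near control, with 15 of 22 positive and a median at 102.2%. The coxsackievirus receptor Cxadr, an adhesion protein of the junction, read 4444.1, 4474.1 and 5122.9 in Scap-deleted lungs, against 4044.0, 3783.9 and 4315.2 in control lungs. The groups did not overlap (log2 difference 0.21, SE 0.11, adjusted p = 0.942). Cingulin (Cgn), which links the junction to actomyosin, stood at 113.1% and the scaffold Magi1 at 115.4% of control. Of the 10 adherens junction genes tested 5 were positive. Nectin2, a nectin, stood at 112.9% and afadin (Afdn), which binds nectins to actin, at 109.4% of control. Plekha7, a partner of p120 catenin, stood at 116.3% (log2 difference 0.22, SE 0.32, unadjusted p = 0.513 by limma). Nectin3 stood at 87.0%, with its other tested probe sets between 12.3% (SE 1.94 on the log2 scale) and 97.9%.

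Desmosomal genes lay on both sides of control, with 3 of 8 positive and a median at 92.3% of control. Plakophilin 2 (Pkp2), which ties desmosomal cadherins to desmoplakin, read 3881.9, 4181.8 and 4930.6 in Scap-deleted lungs, against 3264.3, 3355.3 and 3403.7 in control lungs. The groups did not overlap (log2 difference 0.37, SE 0.12, unadjusted p = 0.0168 and adjusted p = 0.912 by limma). Desmoplakin (Dsp) stood at 117.7%, with its other probe sets at 107.8% and 95.5%, and plakophilin 3 (Pkp3) at 84.6% of control.

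Among matriptase, a membrane protease known to cut Epcam, its partner prostasin and their inhibitors, all 4 tested genes were positive, with a median at 108.9% of control. Matriptase (St14) stood at 119.3%, its inhibitor Spint2 at 111.6% and prostasin (Prss8) at 106.2%. The 6 tested factors that maintain junction genes were also all positive at the brightest probe set, with a median at 110.8%. Among them were the splicing factor Esrp1 at 110.9%, Klf5 at 111.5% and Elf3 at 115.5%. Of the same factors, Grhl2 and Esrp2 each had another tested probe set below control, at 78.7% and 87.5%. Of the E-cadherin repressors 1 of 4 was positive, Snai2 at 110.1%, while Zeb2 stood at 93.2% and Snai1 at 96.1%. The other Zeb2 probe sets lay between 86.2% and 116.0%. At the brightest probe set no gene of these 3 lists had an unadjusted p under 0.05 (limma). A second Klf5 probe set stood at 124.3% of control (unadjusted p = 0.0399 and adjusted p = 0.937 by limma). Zeb1 stood at 97.9% at its brightest probe set and at 99.6% at another. Its remaining tested probe set, dim at a mean of 660.8, stood at 75.4% (unadjusted p = 0.0444 and adjusted p = 0.942 by limma). With the replicate number as a block, the unadjusted p of St14 was 0.0453 (limma). Over the 7 junction lists, Pkp2 (0.0168) and Cldn10 (0.0499) were also under 0.05 with the block. So were 1898 of all 22519 probe sets tested.

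**Figure D4:**
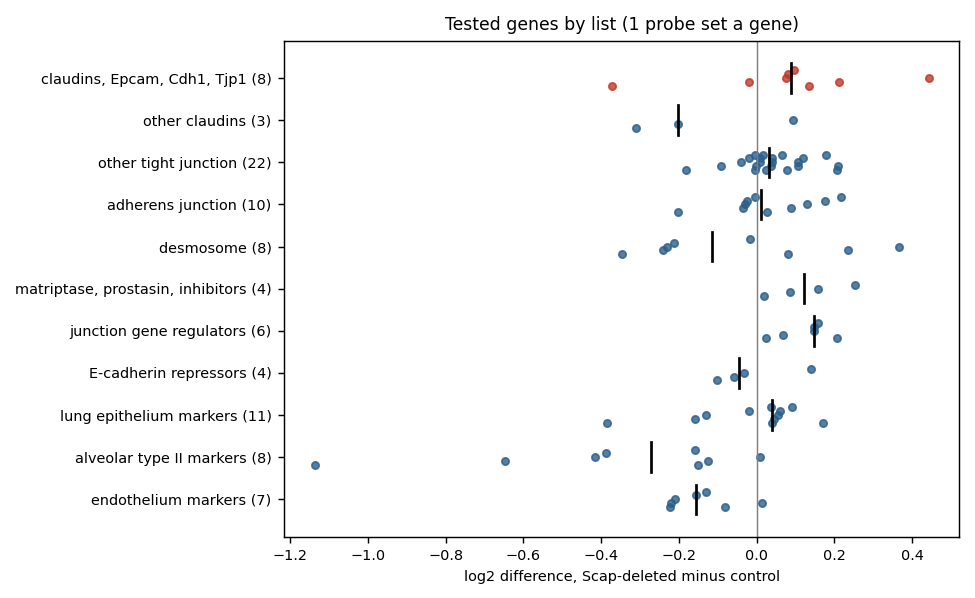
Log2 difference, Scap-deleted minus control, of the tested genes in each list, 1 dot a gene at its brightest probe set, with black bars at the medians and the number tested in brackets. The members (red) have a median of 0.09, and the alveolar type II markers a median of -0.27.

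Markers of the cells that carry these junctions lay on both sides of control. The general epithelial markers, such as Krt8 and Cd24a, had 7 of 11 positive and a median at 102.8% of control. Their summed signal was 122700 to 128130 in Scap-deleted lungs and 115957 to 126091 in control lungs. The groups did not overlap in 0 of them with higher and 2 with lower signal, beside 5.29% and 5.22% of all probe sets tested. These 2 were Elf5 at 76.6% of control (unadjusted p = 0.0297 and adjusted p = 0.919 by limma) and Foxa2 at 91.4%. Another Elf5 probe set stood at 108%. Alveolar type II markers had 7 of 8 negative, a median at 82.8%, and sums of 284915 to 338610 in Scap-deleted lungs and 326774 to 399931 in control lungs. Alveolar type I markers, such as Ager and Cav1, had 4 of 8 positive and a median at 100.1%. Airway markers, such as Scgb1a1 and Scgb3a2, had 7 of 7 negative and a median at 84.5%, with 0 at an unadjusted p under 0.05 (limma). Their sums were 132274 to 205641 in Scap-deleted lungs and 157374 to 243766 in control lungs. No marker value was at 0, 0 of 60 marker genes tested were called, and the part of any of these cells in the Cldn4 and Epcam values was not tested.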

How the data were processed

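Per the labels, RNA of 6 whole lung samples at E18.5 was read on MOE430 V2 arrays. Sample titles give 3 as Scap-deleted and 3 as control. The authors deposited intensity values, a linear signal for 45101 probe sets on each array. RMA is named per the submitters' processing notes, but the values are linear, reach down to 0.2 and differ between arrays in their median. After trimming 2% at either end the mean of each array is 1500.01; no source used here gives the scaling software, background correction or detection calls. No gene-wise centring was seen, and a 1-channel signal has no ratio direction. Column medians were 512.7, 503.0 and 498.5 in Scap-deleted replicates 1 to 3 and 509.0, 530.4 and 490.8 in control replicates 1 to 3.

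The log2 of the signal was taken with no pseudocount, without the 64 Affymetrix controls. By the platform annotation, 34945 of the remaining 45037 probe sets have 1 gene symbol, 932 have several and 9160 have none. Probe sets with a mean of at least 512.3 were compared with limma 3.58.1 (lmFit, then eBayes; R 4.3.3). The model had the group alone, which left 4 residual degrees of freedom, and Benjamini-Hochberg adjustment ran over the 22519 probe sets. The fit was run on simulated data with noise independent between arrays and changes larger than the differences of the tested members. That run does not measure how well differences of the size seen in the members would be found. Lists use 1 probe set a gene, the brightest. Members, lists and tests were chosen with earlier results of these data known. By rule the text names all members, Scap, up to 3 genes of smallest p from each junction list, the brightest markers, and the 4 genes most like Epcam and Cldn4. Some named genes fall outside this rule: Plekha7, Grhl2, Esrp2, Zeb1, Cldn9, Cldn14 and further cell type markers. Alternatives were another normalization, a pseudocount, other brightness limits, 1 probe set a gene, an intensity trend, the replicate block and leaving out arrays.

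The numbers in the titles paired the samples only in the replicate block and in the differences by sample number. All other SE, intervals and p-values are from fits without pairs. Samples with equal numbers deviated together from their group means (r = 0.22, 0.30 and 0.41, each over 0.1). With the block, 1898 probe sets had an unadjusted p under 0.05 (limma), against 1177 without it. The labels do not say what a number stands for. Markers of basal cells, mesothelium, mesenchyme, leukocytes and erythroid cells were examined as well; their sums are in the closing section.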

Additional observations from a re-analysis of the deposited data

How the results depend on the processing

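Under each alternative 0 member probe sets were past the threshold. The count over all probe sets was 0, and became 1 with 1 probe set a gene, 2 with an intensity trend and 1 with the replicate block. The replicate block changed no other call; Cldn4 had an adjusted p of 0.504 and Epcam of 0.546 with it. The count of 2 members at an unadjusted p of 0.05 became 3 with 1 probe set a gene or an intensity trend, which added Cldn7 (unadjusted p of 0.0450 and 0.0380, adjusted p of 0.833 and 0.960, limma), 1 with median centring or no filter on dim probe sets, 0 without both samples numbered 3, and 1 to 2 when 1 array was left out (1 without control replicate 1 or 3, or Scap_deleted replicate 2 or 3). Without Scap_deleted replicate 1 the 2 were Cldn4 and a Cldn1 probe set (0.0358), with Epcam at 0.0829 (limma). Members with groups that do not overlap numbered 3, and 3 to 5 when 1 array was left out (5 without control replicate 1 or Scap_deleted replicate 1). Fewer arrays make separation easier. With the filter at the 75th percentile Cldn4 was not tested, and the 2 at an unadjusted p of 0.05 were Cldn7 (0.0328) and Epcam (0.0273, limma). Their median log2 difference of 0.09 lay between 0.018 and 0.118 when 1 array was left out, and the cause was not tested. Of 204 member differences under alternatives, 7 changed sign, 6 of them when 1 array was left out: the brightest Cldn1 probe set ranged from -0.082 to 0.303, the third Cldn3 probe set from -0.018 to 0.186, the second Epcam probe set from -0.424 to 0.204 and Tjp1 from -0.053 to 0.026. Tjp1 was 0.0049 without both samples numbered 3. The differences of Cldn4 (0.35 to 0.54), Cldn7 (0.19 to 0.25) and the first Epcam probe set (-0.47 to -0.23) kept their direction under all alternatives run. No level of background is given, so signal over background limits the dim Cldn1, Cldn6 and Cldn8 probe sets to an unknown degree.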

Other observations

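Markers of other cells that a whole lung can hold gave these summed signals. Basal and stratified epithelium ranged from 881 to 1951 in Scap-deleted lungs and from 2262 to 2778 in control lungs, a sum carried by Krt15 at 679.7 ± 528 in Scap-deleted lungs and 1619 ± 107 in control lungs. Of these 6 markers Krt15 alone was bright enough to test. Of the other 5, Krt5 at 66.1% and Krt14 at 52.4% read below control. The remaining 3 read above it: Krt4 at 168.7%, Krt13 at 132.4% and Trp63 at 109.7%. The Krt4 value leans on 1 low control array, with control arrays at 428.7, 281.3 and 56.3. Leukocyte markers ranged from 44881 to 62260 in Scap-deleted lungs and from 65355 to 80477 in control lungs, a sum carried by Lyz2, which alveolar type II cells also express, at 34436 ± 8264 in Scap-deleted lungs and 58937 ± 7611 in control lungs. Of these 6 markers 4 had positive differences, among them Ptprc at 115.8%, and the median was 103.9% of control. Mesothelium ranged from 19665 to 23597 in Scap-deleted lungs and from 22071 to 23672 in control lungs. Mesenchyme ranged from 177774 to 181417 in Scap-deleted lungs and from 156161 to 190812 in control lungs. Erythroid markers ranged from 12878 to 17168 in Scap-deleted lungs and from 15995 to 19360 in control lungs.

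Several dim claudins outside the set were below the limit for testing. Cldn9, a neighbour of Cldn6 on chromosome 17, read 62.5, 49.7 and 61.5 in Scap-deleted lungs, against 240.0, 71.9 and 73.5 in control lungs. Cldn14 read 252.7, 189.8 and 233.6 in Scap-deleted lungs, against 184.6, 148.9 and 153.0 in control lungs. These 2 were picked with their values in view.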
